A study of Homo sapiens with 8 samples.

Results

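Collagen genes were taken as every gene of the deposited expression table whose symbol has the form COL, a number, A and a number, which names the alpha chains of the collagens. The table held 44 such genes among 60332, each under 1 symbol and in 1 row, and all 44 are protein-coding genes in the GENCODE v44lift37 annotation of GRCh37. RNA was measured in 2 cell lines established from Ewing sarcoma, RD-ES and SK-N-MC, with 4 libraries a line. The eKD2 cells of each line (2 libraries) carried dCas9-KRAB, a Cas9 that binds without cutting and is fused to a repressor domain, with a guide at the GGAA site of the LOXHD1 enhancer. The control cells of each line (2 libraries) were described in the labels as infected with an empty lenti-dCas9-KRAB virus, and the study calls them parental. Per the labels, infection was at a multiplicity of 10, and puromycin at 1 µg/ml was given for 3 days. Cells were taken within 5 passages of this selection, and no step of single-cell cloning is described. The study describes the 2 libraries of a group as biological duplicates, without saying how the cultures were kept apart.

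Collagens are proteins of the extracellular matrix in which alpha chains wind around each other into a helix, held by a repeat with glycine at every turn. The chains are built in the endoplasmic reticulum, where prolyl and lysyl residues are hydroxylated and chaperones assist folding, and secreted chains are then trimmed and cross-linked. Fibril-forming collagens make the ropes of bone, skin and cartilage, collagen IV makes the mesh of basement membranes, collagen VI makes beaded filaments, and FACIT collagens sit on the surface of fibrils. Ewing sarcoma is a tumour of bone and soft tissue, where these matrices surround its cells.

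Values were FPKM, reads per length of transcript and per library size, so levels can be set side by side between genes. Differences were tested on the log2(FPKM + 1) scale with limma over the 15175 genes whose average across the 8 libraries reached 1 FPKM, and p-values were adjusted by Benjamini-Hochberg over all of them. Of the 44 collagen genes, 24 entered the test and 20 did not. A gene near 0 in 1 line entered only if it was high in the other, so the tested collagens are not a neutral sample of the family. Depth, read from the step that 1 read makes in genes with low values, lay between 7.48 and 30.01 M reads (M, mega) a library, and the shallowest was the first eKD2 library of RD-ES. At these depths 1 read in a transcript of 5000 bases was worth 0.00694 to 0.0278 FPKM. Some of the 5 epithelial markers examined also set apart the first RD-ES eKD2 library. KRT8 was at 8.24 FPKM against 1.08 to 1.38 in the other RD-ES libraries, CDH1 at 3.5 against 0.0369 to 0.160 and EPCAM at 0.971 against 0.300 to 0.446. KRT18 was at 40.6 FPKM, within the 36.8 to 43.3 of the others, and KRT19 was at most 0.115 FPKM in any RD-ES library. The counts of collagens by p-value and the collagens with the smallest p-values in RD-ES eKD2 are therefore also given without this library. All 6 Ewing sarcoma markers examined (CD99, NKX2-2, NR0B1, STEAP1, LIPI and PAX7) reached a mean of 1 FPKM in every group.

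SK-N-MC cells carried more collagen mRNA than RD-ES cells, and in other proportions. The summed level of the 44 genes was 214 to 230 FPKM in the control libraries of RD-ES and 743 to 775 FPKM in those of SK-N-MC. In the eKD2 libraries the sums were 226 to 249 and 802 to 882 FPKM. By their mean in control cells, 20 collagens reached 1 FPKM in RD-ES, and SK-N-MC had 19. The lines shared 15 of them, among them COL1A1, COL5A1, COL5A2, COL4A1, COL4A2, COL6A1 and COL6A2. A further 5 reached 1 FPKM in RD-ES alone (COL11A1, COL11A2, COL22A1, COL4A5 and COL8A2) and 4 in SK-N-MC alone (COL1A2, COL3A1, COL14A1 and COL19A1). Another 20 stayed under 1 FPKM in the controls of both lines, and COL17A1 and COL20A1 were listed at 0 in all 8 libraries. With a limit of 0.5 or 2 FPKM in place of 1, RD-ES control had 29 or 19 collagens and SK-N-MC control 23 or 18.

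**Figure D1:**
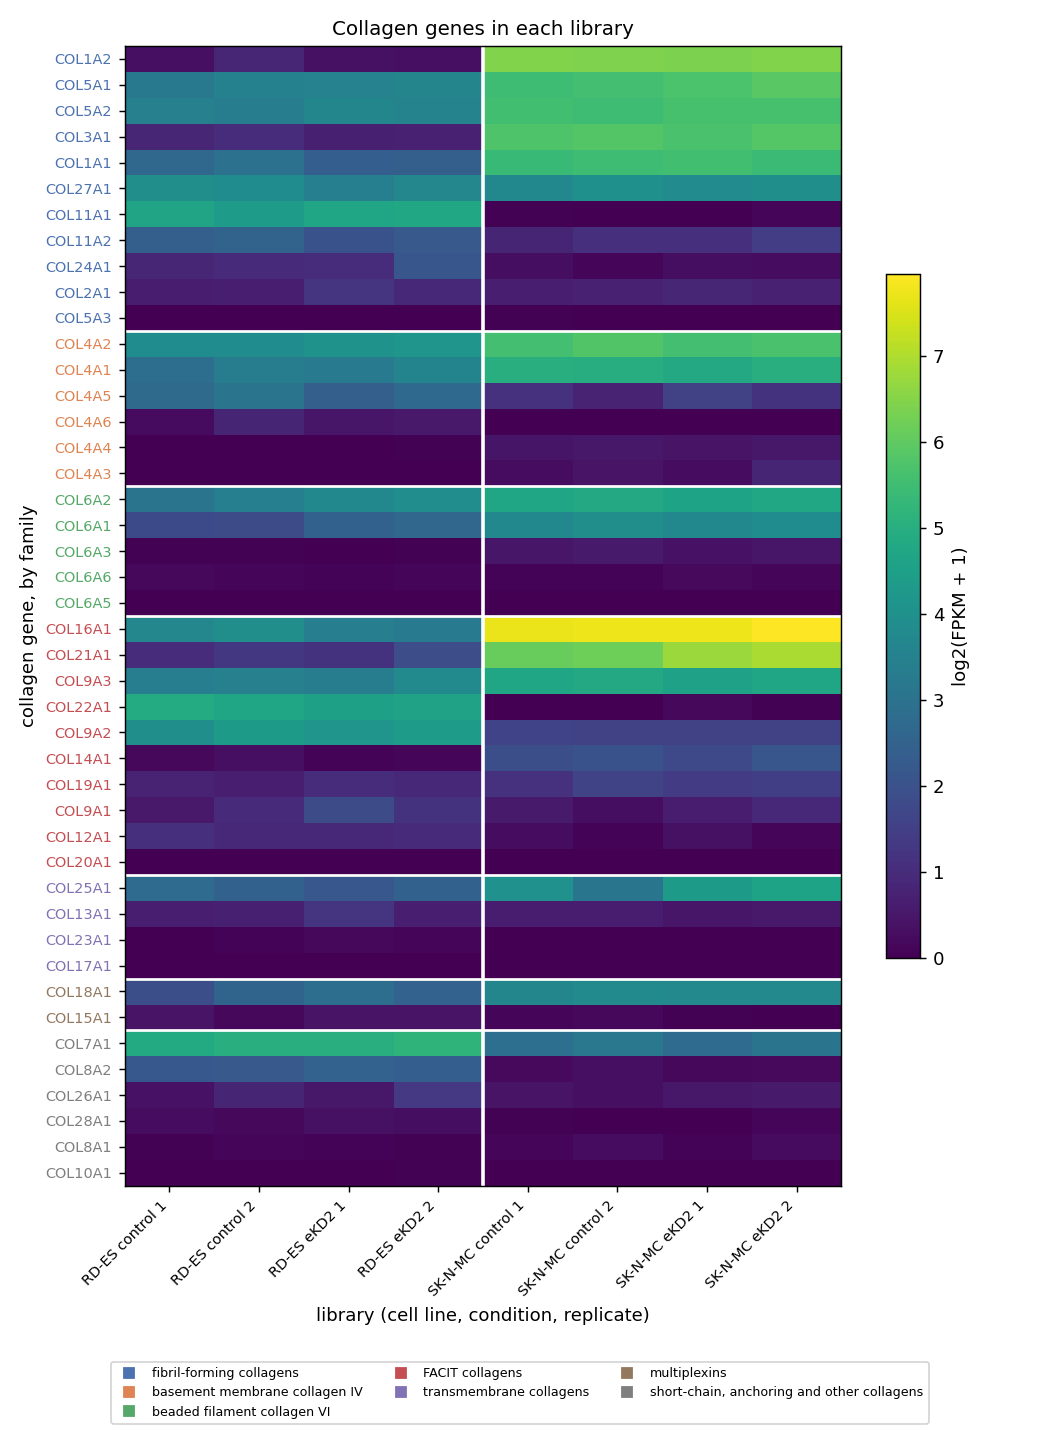
Heat map of the 44 collagen genes (rows, grouped by family and coloured by it) in the 8 libraries (columns), with colour giving log2(FPKM + 1). COL16A1, COL1A2, COL21A1 and COL3A1 are bright in the 4 SK-N-MC libraries, whereas COL11A1 and COL22A1 are at 20.3 to 28.8 FPKM in RD-ES and at most 0.115 FPKM in SK-N-MC.

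The order of the collagens differed between the lines. In RD-ES control, COL7A1, the chain of the anchoring fibrils below epithelia, came first with 28.1 and 30.6 FPKM, followed by COL22A1 with 28.8 and 24.9 FPKM, and these 2 overlapped. COL11A1 came next with 23.8 and 20.3 FPKM, below both. COL9A2, COL27A1, COL4A2, COL16A1, COL9A3, COL5A2 and COL5A1 filled the next places, at 8.31 to 19.3 FPKM. In SK-N-MC control, COL16A1 was first with 209 and 218 FPKM, well clear of COL1A2 with 87.1 and 85.1 FPKM. COL21A1 came next with 67.6 and 72 FPKM, and then COL3A1 with 53.6 and 55.4 FPKM. COL4A2, COL5A1, COL5A2, COL1A1, COL4A1 and COL9A3 followed at 24.7 to 54.6 FPKM. The first of these, COL4A2, with 46.6 and 54.6 FPKM, overlapped COL3A1. COL16A1 alone made up 27.1% to 28.1% of the summed collagen FPKM in each SK-N-MC library, against 3.58% to 6.27% in RD-ES.

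The question of how the lines differ was tested first in control cells. Of the 24 collagens tested, 23 differed at an adjusted p under 0.05 (limma), 16 higher and 7 lower in SK-N-MC, against 57.8% of all genes tested (31.4% higher and 26.4% lower). The exception was COL27A1, with a log2 difference of -0.05 (95% interval -0.37 to 0.28). In eKD2 cells 22 differed, 15 higher and 7 lower, against 56.3% of all genes (28.2% higher and 28.1% lower), and neither COL27A1 nor COL19A1 passed. Without the first RD-ES eKD2 library the number was again 22. Over all 4 libraries of each line, 23 of the 24 did not overlap between the lines, against 60.8% of all genes. Because the filter admits genes high in 1 line, these counts describe the members and are not support for a difference of the family. The median log2 difference of the tested collagens in control cells was 1.49, against 0.065 over all genes. Scaling each library to the same median moved the value over all genes to -0.042 and left 21 collagens past the threshold, with COL19A1 and COL25A1 no longer passing.

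**Figure D2:**
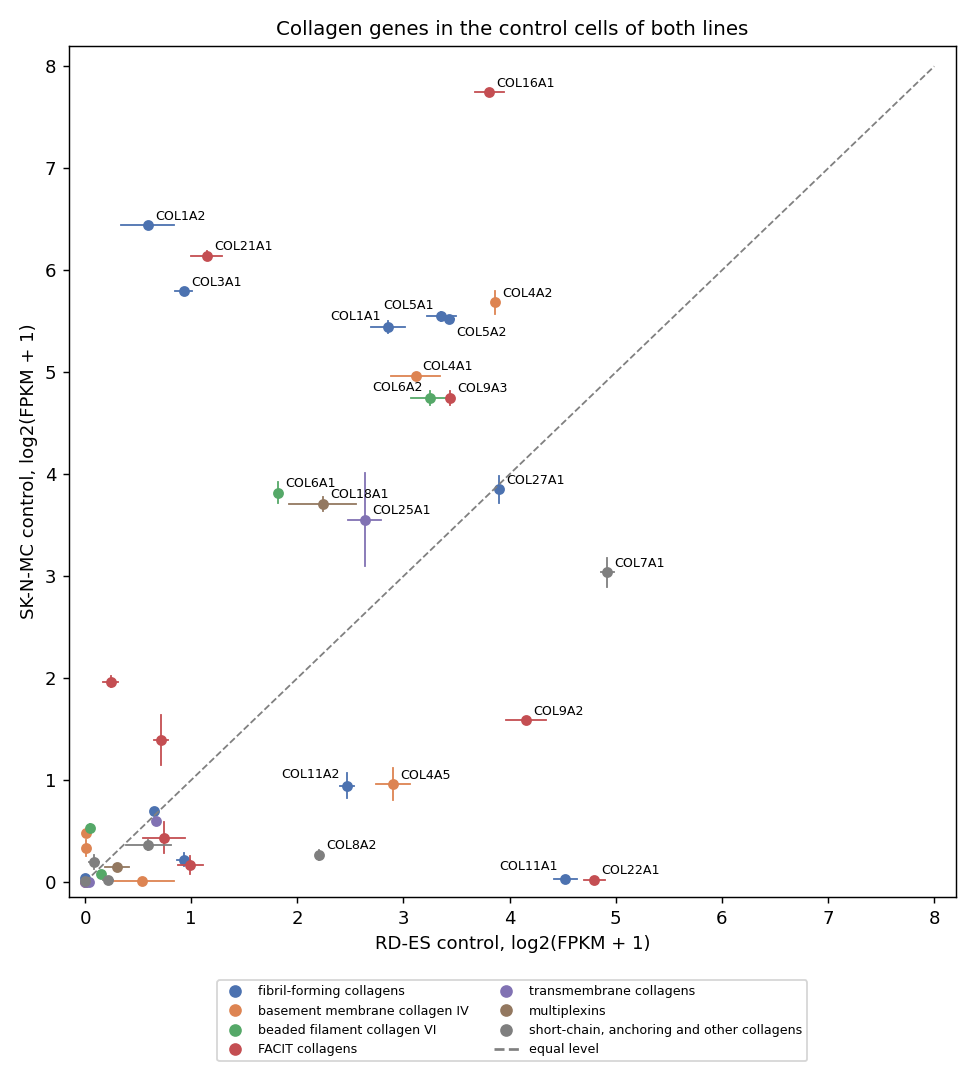
Mean log2(FPKM + 1) of each of the 44 collagen genes in RD-ES control (x axis) against SK-N-MC control (y axis), coloured by family, with lines spanning the 2 libraries and a dashed line of equal level. COL27A1 lies by the dashed line, COL1A2, COL3A1, COL16A1 and COL21A1 lie far above it, and COL11A1, COL22A1 and COL9A2 far below.

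Among the fibril-forming collagens, 8 of 11 were tested, of which 5 were higher and 2 lower in SK-N-MC control. Over all genes tested, 31.4% were higher and 26.4% lower, and the filter on levels limits the reading of this count too. On the log2(FPKM + 1) scale, the largest difference among the 24 tested collagens in control cells was that of COL1A2 (chr7:94024207-94060539, GRCh37). This gene encodes the second chain of collagen I, the main protein of bone and tendon. It was at 0.266 and 0.792 FPKM in RD-ES control and at 87.1 and 85.1 FPKM in SK-N-MC control, a log2 difference of 5.85 (standard error 0.163, limma adjusted p = 5.7e-06). COL1A1 (chr17:48261462-48278993), its partner chain, was present in both lines, at 5.49 and 7.05 FPKM in RD-ES control and 40.7 and 44.2 FPKM in SK-N-MC control (log2 difference 2.59, standard error 0.123, limma adjusted p = 2.8e-05). Neither gene overlapped between the lines in any of the 8 libraries. The first place of COL1A2 depends on the pseudocount. Over the alternatives, which include a pseudocount of 0.1, log2 differences reached 7.24 for COL1A2, -7.56 for COL11A1 and -7.84 for COL22A1.

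COL3A1 (chr2:189839099-189877472), the chain of the fine fibrils of vessels and skin, came after COL1A2 among the fibril-forming collagens, with 0.803 and 1.01 FPKM in RD-ES control and 53.6 and 55.4 FPKM in SK-N-MC control (log2 difference 4.87, standard error 0.101, limma adjusted p = 3.2e-06). COL5A2 (chr2:189896624-190090038), a chain of collagen V that helps to start fibrils, lies 19.2 kb from COL3A1, tail to tail with it. It was at 10.1 and 9.36 FPKM in RD-ES control and 45.5 and 44.2 FPKM in SK-N-MC control, a log2 difference of 2.09 (standard error 0.0766). COL5A1, the other chain of collagen V, had a log2 difference of 2.19 (standard error 0.124). Both neighbours were thus higher in SK-N-MC, whereas in RD-ES COL5A2 stood well above COL3A1 and in SK-N-MC just below it.

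COL11A1 (chr1:103342023-103574428), a cartilage fibril chain, ran the other way. In RD-ES it stood at 23.8 and 20.3 FPKM without eKD2 and 25.2 and 26.0 FPKM with it, against 0.0364, 0, 0.00826 and 0.0686 FPKM in the 4 SK-N-MC libraries. The log2 difference in control cells was -4.50 (standard error 0.119, limma adjusted p = 5.7e-06), a size that depends on the pseudocount because the SK-N-MC values are near 0. COL11A2, the second chain of collagen XI, was also lower in SK-N-MC (4.30 and 4.80 against 0.769 and 1.10 FPKM, log2 difference -1.52, standard error 0.190). COL2A1, the main collagen of cartilage and a partner of both, was low in both lines, at 0.535 to 1.36 FPKM over the 8 libraries, and COL24A1 and COL5A3 were also under the filter.

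Of collagen IV, COL4A1, COL4A2 and COL4A5 were tested and COL4A3, COL4A4 and COL4A6 were not. COL4A1 was at 6.37 and 9.15 FPKM in RD-ES control and 30.5 and 30.0 FPKM in SK-N-MC control. COL4A2 was at 13.5 and 13.6 FPKM and at 46.6 and 54.6 FPKM in the same order. The log2 differences were 1.85 for COL4A1 (standard error 0.176, limma adjusted p = 3.3e-04) and 1.82 for COL4A2 (standard error 0.0983, limma adjusted p = 4.3e-05). COL4A5 went the other way, with 5.70 and 7.36 FPKM in RD-ES control and 1.18 and 0.743 FPKM in SK-N-MC control (log2 difference -1.94, standard error 0.219, limma adjusted p = 6.4e-04). COL4A6 followed COL4A5 at a far lower level, with 0.186 to 0.784 FPKM in RD-ES and 0 to 0.0133 FPKM in SK-N-MC. COL4A3 and COL4A4, the chains of the kidney filter, were listed at 0 to 0.0283 FPKM in RD-ES and 0.192 to 0.783 FPKM in SK-N-MC, and the lines did not overlap in either. Each neighbouring pair of collagen IV genes therefore had both members higher in the same line.

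The collagen IV genes lie in pairs that start back to back, COL4A1 with COL4A2 on chromosome 13, COL4A3 with COL4A4 on chromosome 2 and COL4A5 with COL4A6 on chromosome X. In RefSeq promoter windows on GRCh38.p14, which hold 250 bases before the start of a gene and 50 after it, the starts of COL4A1 and COL4A2 lie 127 bases apart and their windows share 226 bases. For COL4A3 and COL4A4 the figures are 419 and 82 bases, and for COL4A5 and COL4A6 they are 380 and 121 bases. The windows are shown of COL4A1 (chr13:110307108-110307407, minus strand) and COL4A5 (chrX:108439588-108439887, plus strand), because these 2 genes differed between the lines in opposite directions. Each window overlaps that of the neighbouring gene. With them are those of COL16A1 (chr1:31703968-31704267, minus strand) and COL11A1 (chr1:103108473-103108772, minus strand), which are among the collagens with the largest differences each way and have a window in the table, and of COL6A2 (chr21:46097862-46098161, plus strand), which is taken up with eKD2. All are written 5′ to 3′ along the gene. Capitals mark the short motifs GGGCGG (the GC box), CCAAT (the CCAAT box) and TATAAA (the TATA box), with their reverse complements (CCGCCC for the GC box, ATTGG for the CCAAT box and TTTATA for the TATA box).
COL4A1: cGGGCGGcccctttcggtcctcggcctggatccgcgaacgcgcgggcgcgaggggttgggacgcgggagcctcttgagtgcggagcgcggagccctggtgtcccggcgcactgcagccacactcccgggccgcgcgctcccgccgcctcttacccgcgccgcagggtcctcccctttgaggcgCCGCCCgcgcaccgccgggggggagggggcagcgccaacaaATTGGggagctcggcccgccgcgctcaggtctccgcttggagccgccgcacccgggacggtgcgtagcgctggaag
COL4A5: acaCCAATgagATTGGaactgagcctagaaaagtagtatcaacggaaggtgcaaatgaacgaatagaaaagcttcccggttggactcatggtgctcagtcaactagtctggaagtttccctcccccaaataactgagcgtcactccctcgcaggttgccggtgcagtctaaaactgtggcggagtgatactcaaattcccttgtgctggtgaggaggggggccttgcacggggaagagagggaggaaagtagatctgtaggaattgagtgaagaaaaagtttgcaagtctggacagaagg
COL16A1: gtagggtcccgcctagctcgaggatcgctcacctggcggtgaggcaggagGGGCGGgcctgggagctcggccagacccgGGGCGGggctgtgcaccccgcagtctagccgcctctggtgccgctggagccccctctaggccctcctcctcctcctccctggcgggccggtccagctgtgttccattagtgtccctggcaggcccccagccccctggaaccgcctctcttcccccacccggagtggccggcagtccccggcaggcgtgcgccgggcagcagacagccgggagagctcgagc
COL11A1: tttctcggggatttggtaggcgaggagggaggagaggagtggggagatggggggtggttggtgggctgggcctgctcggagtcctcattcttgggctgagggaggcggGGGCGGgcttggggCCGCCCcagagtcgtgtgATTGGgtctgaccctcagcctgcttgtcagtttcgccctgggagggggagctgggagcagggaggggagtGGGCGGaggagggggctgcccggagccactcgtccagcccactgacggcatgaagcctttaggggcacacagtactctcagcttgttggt
COL6A2: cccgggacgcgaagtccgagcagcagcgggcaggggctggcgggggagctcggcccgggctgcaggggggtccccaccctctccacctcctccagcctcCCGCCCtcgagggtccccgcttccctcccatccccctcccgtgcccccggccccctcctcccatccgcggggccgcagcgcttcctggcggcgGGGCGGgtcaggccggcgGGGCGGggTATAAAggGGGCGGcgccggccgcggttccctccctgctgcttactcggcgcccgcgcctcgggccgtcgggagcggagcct
The table held 44 windows of 32 collagen genes, some with several starts, and COL1A1, COL1A2, COL2A1, COL3A1, COL5A2, COL6A1, COL6A5, COL8A1, COL9A3, COL14A1, COL20A1 and COL22A1 were not in it. GGGCGG was in 24 of the 44 windows (54.5%, against 45% of all 35116 windows), CCAAT in 14 (31.8% against 34.6%) and TATAAA in 8 (18.2% against 11.5%). GGAAGGAA, 2 units of the repeat that the fusion protein of Ewing sarcoma binds, was in 0 of the 44, against 3.67% of all windows. A match describes letters and not a bound site. The study places the repeat at LOXHD1 kilobases upstream of its start, outside such a window, and sites beyond the windows were not searched.

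Of collagen VI, COL6A1 and COL6A2 were at over 2 FPKM in every library and COL6A3 was under 0.5 FPKM throughout. COL6A1 was at 2.46 and 2.61 FPKM in RD-ES control and 12.1 and 14.2 FPKM in SK-N-MC control, and COL6A2 at 7.40 and 9.74 against 24.6 and 27.2 FPKM. The log2 differences were 2.00 (standard error 0.119) and 1.5 (standard error 0.144), with limma adjusted p = 5.9e-05 and 3.4e-04. COL6A3, the long chain that classical collagen VI needs beside these, was at 0 to 0.0369 FPKM in RD-ES and 0.304 to 0.483 FPKM in SK-N-MC. COL6A5 and COL6A6, which can stand in its place, were at most 0.146 FPKM in any library. In both lines 2 of the chains were thus present at over 2 FPKM, and the 3 candidates for the remaining place were all under 0.5 FPKM.

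The FACIT collagens held both the largest contributor to SK-N-MC and one of the leading genes of RD-ES. COL16A1 (chr1:32117864-32169920), found at the edges of fibrils and basement membranes, was at 11.7 and 14.4 FPKM in RD-ES control and 209 and 218 FPKM in SK-N-MC control (log2 difference 3.93, standard error 0.117, limma adjusted p = 6.6e-06). COL21A1 was at 1.00 and 1.45 FPKM against 67.6 and 72 FPKM, a log2 difference of 5.00 (standard error 0.236, limma adjusted p = 2.8e-05). COL22A1, known from tissue junctions of muscle and tendon, was at 28.8 and 24.9 FPKM against 0.0159 and 0.0181 FPKM, a log2 difference of -4.77 (standard error 0.116, limma adjusted p = 5.1e-06). The size of this difference depends on the pseudocount, as that of COL11A1 does. COL14A1 was higher in SK-N-MC at a low level (0.125 and 0.244 against 2.76 and 3.05 FPKM, log2 difference 1.72, standard error 0.201). COL19A1 (log2 difference 0.68, standard error 0.217, limma adjusted p = 0.037) passed in control cells, a call lost in 8 of 16 alternatives, with a log2 difference of 0.43 without the second SK-N-MC control library.

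Collagen IX, a FACIT collagen of cartilage, was split. COL9A2 was lower in SK-N-MC (14.6 and 19.3 against 2.04 and 1.98 FPKM, log2 difference -2.56, standard error 0.151) and COL9A3 higher (9.68 and 10.0 against 24.7 and 27.2 FPKM, log2 difference 1.31, standard error 0.160). COL9A1, the remaining chain, was at 0.458 to 2.63 FPKM in RD-ES and 0.219 to 0.898 FPKM in SK-N-MC, and these ranges overlapped.

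Outside these families, COL7A1 and COL8A2, a short-chain collagen of vessel and cornea, were higher in RD-ES, with log2 differences of -1.88 (standard error 0.145) and -1.94 (standard error 0.156). COL18A1, whose end releases endostatin, was higher in SK-N-MC (2.80 and 4.87 against 11.5 and 12.7 FPKM, log2 difference 1.47, standard error 0.230). SLC19A1 lies antisense to it and shares 18.5% of its exon bases, and since the library kit named by the study (TruSeq RNA v2) does not mark strand, its reads there cannot be told from those of COL18A1. The 13 other collagens with any shared exon bases share under 10% of them. COL25A1, a transmembrane collagen of neurons, was at 5.92 and 4.58 FPKM in RD-ES control and at 15.2 and 7.55 FPKM in SK-N-MC control, so that the second SK-N-MC library lay closer to RD-ES than to its replicate (log2 difference 0.92, standard error 0.312, limma adjusted p = 0.045). This call was lost in 13 of 16 alternatives, and the log2 difference was 0.46 without the first SK-N-MC control library and 1.38 without the second.

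Partner chains of 1 collagen kept or lost their proportion between the lines, depending on the pair. The ratio of COL4A1 to COL4A2 was 0.470 to 0.675 over all 8 libraries, and RD-ES and SK-N-MC overlapped. For COL5A1 to COL5A2 it was 0.821 to 1.2, again with overlap. COL6A1 to COL6A2 stood at 0.268 to 0.375 in RD-ES and 0.493 to 0.521 in SK-N-MC, without overlap. The ratio of COL1A1 to COL1A2 was 8.90 to 20.6 in RD-ES and 0.467 to 0.556 in SK-N-MC. That of COL9A2 to COL9A3 was 1.51 to 1.93 in RD-ES and 0.0726 to 0.0859 in SK-N-MC. Collagen I is most often built with more of the COL1A1 than of the COL1A2 chain, and an mRNA ratio does not give the ratio of the chains.

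**Figure D3:**
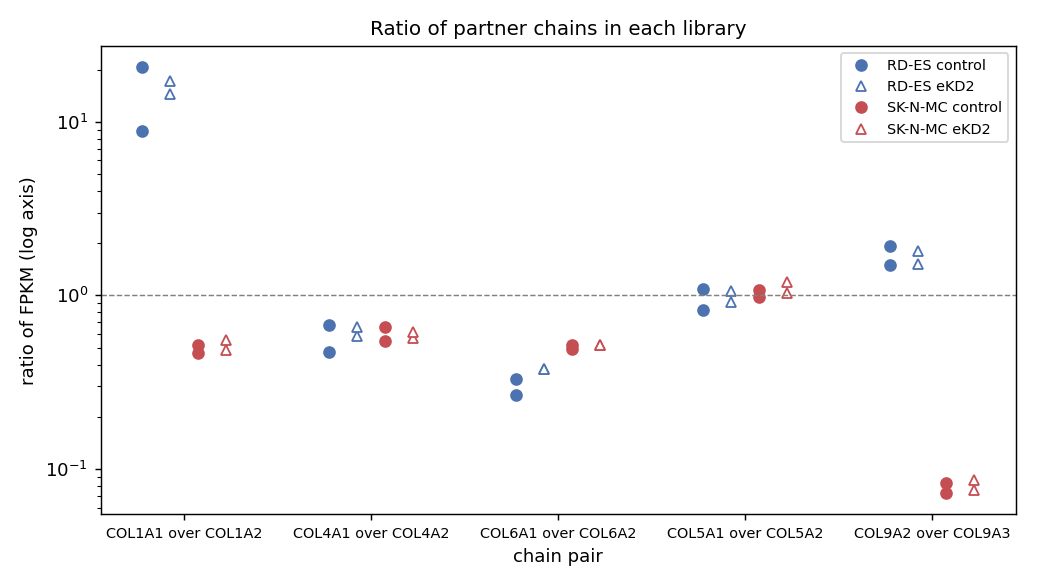
Ratio of FPKM of 5 pairs of partner chains in each of the 8 libraries (points, logarithmic y axis; filled circles control, open triangles eKD2, blue RD-ES, red SK-N-MC), with a dashed line at 1. COL4A1 to COL4A2 and COL5A1 to COL5A2 keep their ratio in both lines, whereas COL1A1 to COL1A2 lies at 8.90 to 20.6 in RD-ES and 0.467 to 0.556 in SK-N-MC.

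The family also differs in how long its glycine repeat runs without a break, which the selection by name did not use. In the longest open reading frame of each gene, the longest run of codon triples that begin with a glycine codon (GGN) had a median of 338 triples in the 11 fibril-forming collagens (216 to 343) and of 60.5 over all 44 genes (23 to 343). In collagen IV the longest run was 38 to 66 triples, in collagen VI 37 to 87 and in the FACIT collagens 32 to 113. Of the genes high in RD-ES, the longest run was 338 triples in COL11A1, 113 in COL22A1 and 75 in COL7A1. Of those high in SK-N-MC, it was 339 in COL1A2, 343 in COL3A1, 113 in COL21A1 and 57 in COL16A1. Both sets thus include fibril-forming chains and chains with shorter runs than these.

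Genes that build, trim, cross-link, degrade and bind collagen were read out in 6 lists. Of 53 genes listed, 52 were in the table and 37 were tested. Of these, 9 were higher and 14 lower in SK-N-MC control, against 57.8% of all genes (31.4% higher and 26.4% lower). The counts of single lists that follow are to be read beside the same shares. Of the hydroxylation list, 3 of 11 were higher and 6 lower. PLOD2, which hydroxylates lysines of the chain ends, was at 21.0 and 14.1 FPKM in RD-ES control and 71.6 and 73.8 FPKM in SK-N-MC control (log2 difference 2.02, standard error 0.235), whereas CRTAP, part of the prolyl 3-hydroxylation complex, was lower (65.7 and 75.8 against 27.1 and 30.8 FPKM, log2 difference -1.26, standard error 0.1). Of the folding list, 1 of 10 was higher and 4 lower. FKBP10, a chaperone of collagen I, was at 23.5 and 29.8 FPKM in RD-ES control and 0.604 and 0.238 FPKM in SK-N-MC control (log2 difference -4.28, standard error 0.177). SERPINH1, the collagen chaperone HSP47, was at 278 and 271 against 150 and 167 FPKM (log2 difference -0.79, standard error 0.0685).

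The cross-linking enzymes LOX and LOXL1 differed in opposite directions. LOX was at 0.325 and 0.852 FPKM in RD-ES control and 18.7 and 19.6 FPKM in SK-N-MC control (log2 difference 3.69, standard error 0.225), and LOXL1 at 44.3 and 57.0 against 2.47 and 1.93 FPKM (log2 difference -4.01, standard error 0.154). LOXL2 was near 1 FPKM in both lines (log2 difference -0.02). Of the receptors, DDR2, which is switched on by fibrillar collagen, was higher in SK-N-MC (26.4 and 24.7 against 141 and 131 FPKM, log2 difference 2.37, standard error 0.0705). ITGA1, the integrin chain for collagen IV among others, was lower (40.3 and 34.0 against 4.66 and 2.76 FPKM, log2 difference -3.04, standard error 0.218). Of propeptide cleavage, 1 gene was higher (ADAMTS3) and 1 lower (PCOLCE2) of 4 tested, and of the degrading proteases 2 were higher (MMP14 and MMP2) and 1 lower (MMP9) of 4. The shares over all genes tested were 31.4% higher and 26.4% lower.

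**Figure D4:**
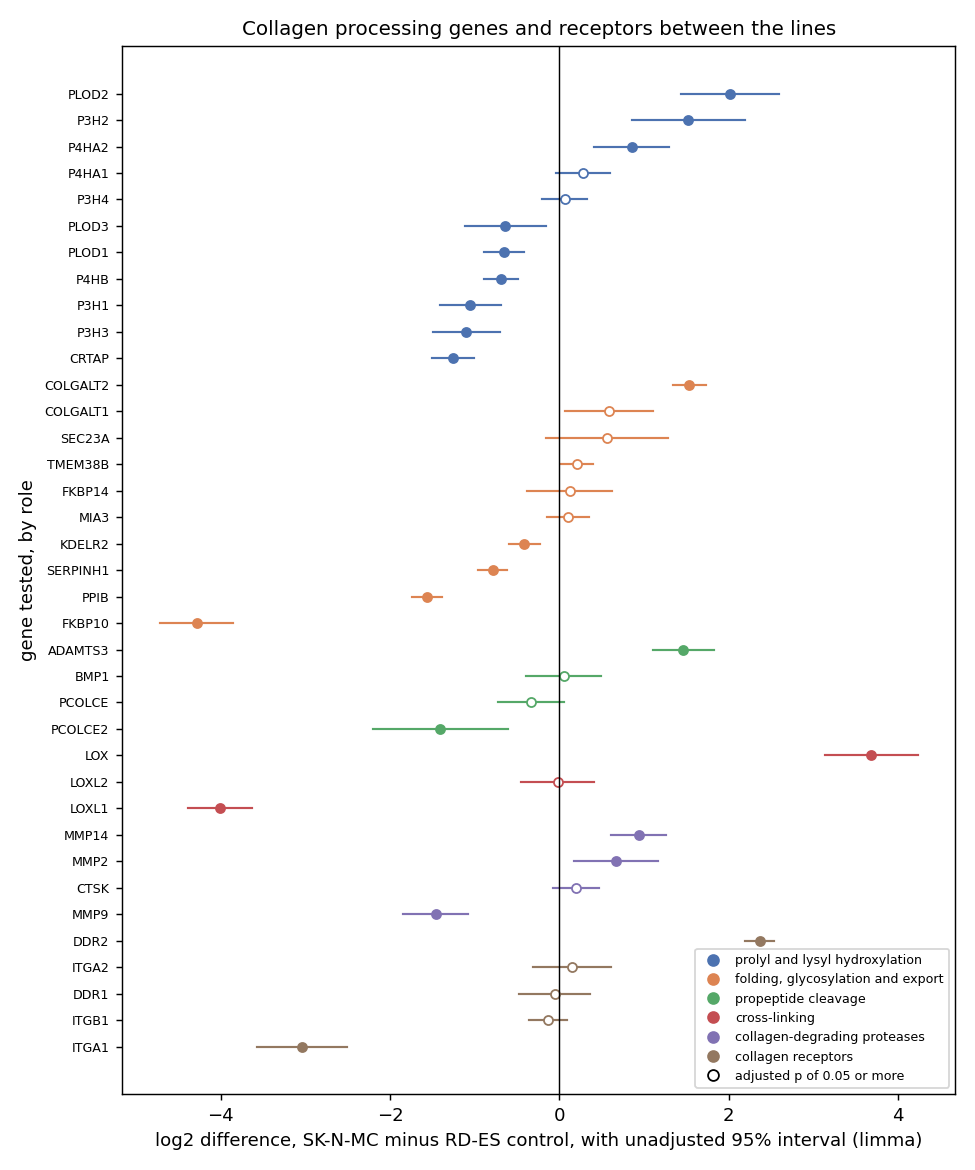
Log2 difference of the 37 tested processing genes and receptors between SK-N-MC and RD-ES control (x axis), coloured by role, with unadjusted 95% limma intervals; filled points have an adjusted p under 0.05. LOX (3.69) and LOXL1 (-4.01) lie at opposite ends of the cross-linking genes, as do DDR2 (2.37) and ITGA1 (-3.04) of the receptors.

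Markers of other cell types moved with the line difference. The summed level of 6 fibroblast markers was 48.4 to 68.5 FPKM in RD-ES and 262 to 277 FPKM in SK-N-MC. DCN was at 0.695 to 2.90 against 134 to 159 FPKM, and LUM at 3.47 to 4.81 against 37.9 to 43.8 FPKM. Of the other 4, THY1 and FAP were also higher in SK-N-MC, PDGFRA was at 0.0499 to 0.415 FPKM in SK-N-MC and 0.475 to 1.19 FPKM in RD-ES, and POSTN was at most 0.203 FPKM in any library. PTPRC, a blood marker, was at 19.2 to 22.6 FPKM in SK-N-MC, with CD3E listed at 0 throughout. The part of these genes in the collagen difference was not tested. In bulk RNA, fewer cells of a type and less RNA per cell cannot be told apart. With 1 line of each kind, these are differences between RD-ES and SK-N-MC and not between kinds of tumour.

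The question of what silencing the LOXHD1 enhancer did to the collagens was asked within each line. LOXHD1, the targeted gene, fell from 21.4 and 21.2 to 1.04 and 1.02 FPKM in RD-ES and from 159 and 169 to 11 and 12.0 FPKM in SK-N-MC (log2 changes -3.46 and -3.73, limma adjusted p = 0.00011 and 3.7e-05), as the labels require. At an adjusted p under 0.05 (limma), 0 of the 24 tested collagens changed with eKD2 in RD-ES, against 0.343% of all genes, and 0 in SK-N-MC, against 0.323%. At an unadjusted p under 0.05 there were 5 in RD-ES (2 higher and 3 lower), against 12.3% of all genes (8.49% higher and 3.79% lower). Without the first RD-ES eKD2 library there were 6 (4 higher and 2 lower), and 0 at an adjusted p under 0.05. In SK-N-MC there were 2, both higher, against 13% of all genes (5.71% higher and 7.29% lower). The median log2 change of the 24 was 0.16 in RD-ES (0.031 over all genes) and 0.034 in SK-N-MC (-0.0049 over all genes). On the log2(FPKM + 1) scale, 21 of the 24 in RD-ES had a 95% interval of the change within 2-fold in either direction. The exceptions were COL6A1, COL18A1 and COL25A1. In SK-N-MC 22 did, all but COL21A1 and COL25A1. On this scale the change of a gene near 0 FPKM is drawn towards 0, so the counts do not bound the FPKM ratio of such genes. Among these were COL14A1 in RD-ES (0.125 and 0.244 to 0.0458 and 0.0779 FPKM) and COL22A1 in SK-N-MC (0.0159 and 0.0181 to 0.115 and 0.0353 FPKM). In RD-ES the eKD2 and control libraries did not overlap for 18 of the 24 (9 higher and 9 lower), against 39.3% of all genes (24.2% higher and 15.1% lower). In SK-N-MC they did not for 9 (7 higher and 2 lower), against 47.3% (22.2% higher and 25.1% lower).

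**Figure D5:**
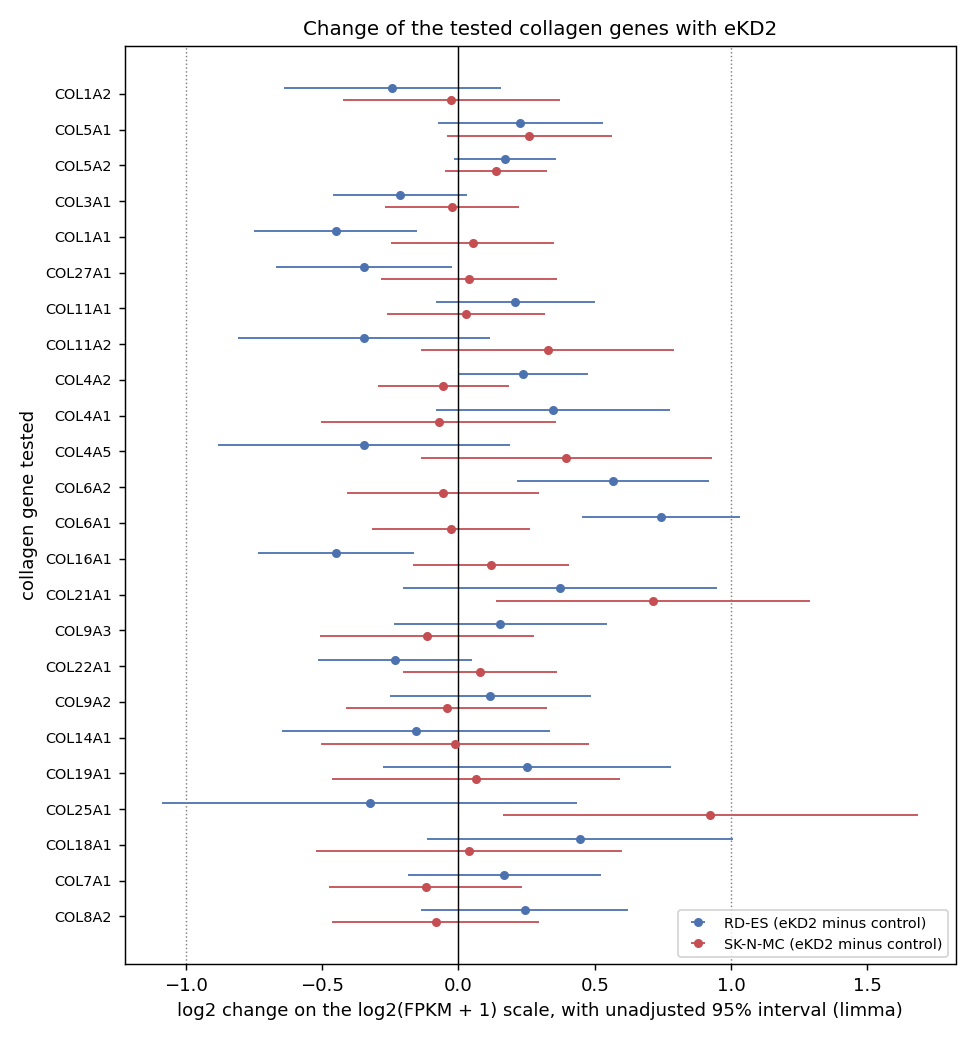
Log2 change with eKD2 on the log2(FPKM + 1) scale (x axis) of the 24 tested collagen genes in RD-ES (blue) and SK-N-MC (red), with unadjusted 95% limma intervals and dotted lines at a 2-fold change. COL6A1 (0.74) and COL6A2 (0.57) lie to the right in RD-ES and near 0 in SK-N-MC, and COL25A1 has the widest intervals.

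In RD-ES the smallest p-values belonged to the collagen VI genes. COL6A1 was at 2.46 and 2.61 FPKM without eKD2 and 4.61 and 5.23 FPKM with it, means of 2.53 ± 0.109 and 4.92 ± 0.444 FPKM (SD, n = 2 each). Its log2 change was 0.74 (standard error 0.119, limma adjusted p = 0.12), 95th of all genes by p, and every eKD2 value was above every control value. COL6A2, 93.1 kb further along chromosome 21 in the same direction, was at 7.40 and 9.74 FPKM without eKD2 and 12.3 and 13.9 FPKM with it (log2 change 0.57, standard error 0.144, limma adjusted p = 0.23), again without overlap. Without the first eKD2 library the log2 change was 0.82 for COL6A1 and 0.65 for COL6A2, with limma adjusted p = 0.24 and 0.39. Over all alternatives the adjusted p of COL6A1 ranged from 0.074 to 0.54 and that of COL6A2 from 0.22 to 0.56. The share of collagen VI in the summed collagen FPKM was 4.66% and 5.42% in RD-ES control and 7.51% and 7.77% in RD-ES eKD2. In SK-N-MC, COL6A1 was at 12.1 and 14.2 FPKM without eKD2 and 12.1 and 13.6 FPKM with it, which overlapped, and COL6A2 likewise.

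The 3 collagens lower in RD-ES eKD2 at an unadjusted p under 0.05 were COL16A1, COL1A1 and COL27A1. COL16A1 was at 11.7 and 14.4 FPKM without eKD2 and 9.63 and 8.91 FPKM with it (log2 change -0.45, standard error 0.117, limma adjusted p = 0.24). COL1A1 was at 5.49 and 7.05 FPKM without eKD2 and 4.22 and 4.36 FPKM with it (log2 change -0.45, standard error 0.123, limma adjusted p = 0.25), and COL27A1 at 14.1 and 13.7 against 9.73 and 11.8 FPKM (log2 change -0.35, standard error 0.132, limma adjusted p = 0.38). None of the 3 overlapped between control and eKD2. Without the first eKD2 library the log2 changes of COL16A1, COL1A1 and COL27A1 were -0.50, -0.43 and -0.22, and without the second control library that of COL1A1 was -0.29. Of collagen IV, COL4A2 (13.5 and 13.6 to 15.5 and 16.8 FPKM, log2 change 0.24) and COL4A1 (6.37 and 9.15 to 8.99 and 11.1 FPKM, log2 change 0.35) had limma adjusted p = 0.41 and 0.49. Without the first eKD2 library their log2 changes were 0.29 and 0.49. That of COL4A1 depended on single libraries, with 0.12 without the first control, 0.58 without the second and 0.21 without the second eKD2 library. COL5A2, COL3A1 and COL22A1, the others of the 10 smallest p-values, had log2 changes of 0.17, -0.21 and -0.23, and of 0.12, -0.19 and -0.20 without the first eKD2 library. COL3A1 was at -0.14 without the second control library and COL22A1 at -0.13 without the first.

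By their mean, 23 collagens reached 1 FPKM in RD-ES eKD2, against 20 in control. Those near the limit included COL9A1, at 0.458 and 0.925 FPKM without eKD2 and 2.63 and 1.24 FPKM with it, COL2A1, at 0.535 and 0.605 against 1.36 and 0.887 FPKM, and COL24A1, at 0.826 and 0.989 against 1.00 and 3.38 FPKM. The highest value of COL9A1 and of COL2A1 was in the first eKD2 library, the shallowest, and that of COL24A1 in the second. None of the 3 was tested.

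In SK-N-MC the smallest p-values were those of COL21A1 and COL25A1. COL21A1 was at 67.6 and 72 FPKM without eKD2 and 109 and 122 FPKM with it, means of 69.8 ± 3.12 and 115 ± 9.05 FPKM (SD, n = 2 each). Its log2 change was 0.71 (standard error 0.236, limma adjusted p = 0.30), and its standard error was shared with RD-ES, where the 2 eKD2 libraries were at 1.25 and 2.67 FPKM. The adjusted p ranged from 0.18 to 0.68 over the alternatives, which include a fit of the SK-N-MC libraries alone. COL21A1 made up 9.09% and 9.29% of the summed collagen FPKM in SK-N-MC control and 13.6% and 13.8% in eKD2. COL25A1 was at 15.2 and 7.55 FPKM without eKD2 and 19.4 and 23.4 FPKM with it (log2 change 0.92, standard error 0.312, limma adjusted p = 0.31), and the size depended on the control libraries. Without the second the log2 change was 0.47, and without the first control library 1.38.

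The main collagens of SK-N-MC otherwise stayed close to their control level. COL16A1 was at 209 and 218 FPKM without eKD2 and 217 and 248 FPKM with it (log2 change 0.12, 95% interval -0.17 to 0.41). COL1A2 was at 87.1 and 85.1 against 82.7 and 86.4 FPKM (log2 change -0.03, 95% interval -0.43 to 0.37), and COL3A1 at 53.6 and 55.4 against 50.6 and 56.8 FPKM (log2 change -0.02, 95% interval -0.27 to 0.22). In each of these 3 genes the groups overlapped. COL5A1 was at 44.3 and 47.3 FPKM without eKD2 and 51.1 and 59.3 FPKM with it, which did not overlap (log2 change 0.26, standard error 0.124, limma adjusted p = 0.45). Without the second eKD2 library its log2 change was 0.15, and that of COL16A1 was 0.025, against 0.22 for COL16A1 without the first.

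The test of whether the eKD2 change differed between the lines gave 0 of the 24 collagens at an adjusted p under 0.05, against 0.244% of all genes. At an unadjusted p under 0.05 there were 6, against 13.5% of all genes (4.38% higher and 9.16% lower), with 4 higher in SK-N-MC relative to RD-ES (COL16A1, COL1A1, COL25A1 and COL11A2) and 2 lower (COL6A1 and COL6A2). This split by direction depended on single libraries and turned round without the first RD-ES eKD2 library. The log2 differences of these 6 kept their sign in all 15 alternatives run (0.43 to 0.71 for COL16A1, -0.96 to -0.67 for COL6A1). COL6A1 had a log2 change of 0.74 in RD-ES but of -0.03 in SK-N-MC, a difference of -0.77 (standard error 0.168, limma adjusted p = 0.20). For COL6A2 the difference was -0.63 (standard error 0.204, limma adjusted p = 0.29) and for COL16A1 it was 0.57 (standard error 0.166, limma adjusted p = 0.26). In 16 of the 24 the 95% interval of the difference lay within 2-fold in either direction on the log2(FPKM + 1) scale. The limit for genes near 0 FPKM holds here too. The comparison of the lines in control cells uses the same control libraries as the eKD2 comparisons, so the values of each stand side by side and are not independent.

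Of the 37 tested processing genes and receptors, 0 passed with eKD2 at an adjusted p under 0.05 (limma) in RD-ES (0.343% of all genes), in SK-N-MC (0.323%) or in the difference between the lines (0.244%). At an unadjusted p under 0.05 there were 4 in RD-ES (1 higher and 3 lower), against 12.3% of all genes, and 5 in SK-N-MC (2 higher and 3 lower), against 13%. For the difference between the lines there were 7 (5 higher and 2 lower), against 13.5%. In RD-ES the smallest p-values were those of DDR2 (26.4 and 24.7 against 31.6 and 32.8 FPKM, log2 change 0.32, limma adjusted p = 0.19), SERPINH1 (278 and 271 against 223 and 227 FPKM, log2 change -0.28, limma adjusted p = 0.22) and PCOLCE, an enhancer of propeptide cleavage (59.6 and 64.6 against 37.6 and 43.2 FPKM, log2 change -0.61, limma adjusted p = 0.24). In SK-N-MC they were those of P4HA2, a prolyl 4-hydroxylase (7.35 and 6.73 against 15.6 and 14.4 FPKM, log2 change 1.00, limma adjusted p = 0.14), SERPINH1 (150 and 167 against 182 and 194 FPKM, log2 change 0.25, limma adjusted p = 0.24) and MIA3, which helps collagen leave the endoplasmic reticulum (59.8 and 65.3 against 48.1 and 50.8 FPKM, log2 change -0.33, limma adjusted p = 0.27). SERPINH1 was lower with eKD2 in RD-ES and higher in SK-N-MC without overlap in either line, and the test of that difference gave 0.53 (standard error 0.0969, limma adjusted p = 0.15). MMP14, a membrane protease that cuts collagen, had a difference between the lines of 0.68 (standard error 0.191, limma adjusted p = 0.25), and P4HA2 one of 0.90 (standard error 0.256, limma adjusted p = 0.25).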

How the data were processed

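Deposited values were FPKM per gene and library, which the authors computed with cufflinks and cuffnorm from single-end reads aligned with STAR to GRCh37. The submitters' processing notes also name FastQC, DESeq2 and hg19, but the counts behind the DESeq2 test were not analysed here, so limma was used in its place. The members and gene lists were chosen with earlier results of these data known. Values were tested as log2(FPKM + 1) with limma 3.58.1 in R 4.3.3 (lmFit, eBayes with trend) over 4 groups of 2 libraries in 1 fit, with an adjusted p threshold of 0.05; the fit was tested on simulated data. Such fold changes understate those of low genes. With 2 libraries against 2, the smallest p of an exact permutation test is 0.333. Replicates correlated with r of 0.937 to 0.945 across genes, which are not independent. Depth was estimated from genes with 1 annotated transcript, with a fragment length of 200 bases assumed; in these 79.7% to 83.3% of values up to 5 reads were whole within 3%. It includes any scaling by cuffnorm. Genes were named by a rule: collagens past the threshold or among the 10 smallest p-values of a comparison, the 10 with the highest mean in each line, collagens I, III, IV and VI, and the 3 processing genes or receptors with the smallest p-values in each eKD2 comparison, with LOXHD1 as the target. Other genes named were chosen after their values were seen. Alternatives were a pseudocount of 0.1, no filter, median and quantile scaling, fits of the compared groups alone, no variance trend, thresholds of 0.5 and 2 FPKM, a replicate block, summed rows per symbol and each library left out.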

Additional observations from a re-analysis of the deposited data

How the results depend on the processing

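Under all 16 alternatives 0 collagens passed with eKD2 in either line and, where a fit was run, 0 differed between the lines in that change. The fit of the compared groups alone was not run for this difference, which needs all 4 groups. Between the lines, 21 to 24 collagens passed in control cells and 21 to 28 in eKD2 cells, the highest counts without the filter, where more genes were tested. Over all genes, eKD2 calls in RD-ES and SK-N-MC were 52 and 49, against 79 and 118 without the filter, 1 and 13 with the compared groups alone, and 11 and 5 with the replicate block. The replicate number only names libraries, since deviations of same-numbered libraries correlated at -0.021 to 0.064. With the block, 21 collagens passed in each line comparison. Here the block compares the lines at levels fitted for the first-numbered libraries, not at group means. The median log2 difference over all genes in control cells was then 0.072, against 0.065. Line calls lost with the block therefore refer to a somewhat different quantity. COL25A1 in control cells lost its call in 13 of 16 alternatives, including each library left out except the second SK-N-MC control. Its log2 difference was 0.46 without the first SK-N-MC control and 1.38 without the second. COL19A1 lost its call in 8, including either RD-ES control or the second SK-N-MC control (log2 difference 0.43) left out. COL18A1 in eKD2 cells did so in 4, with the block (1.09) or without the second RD-ES (0.87) or either SK-N-MC eKD2 library. The cause was not tested.

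Small eKD2 changes turned sign. With quantile normalization, COL22A1 was at -0.0047 and COL3A1 at 0.0066 in SK-N-MC. With single libraries left out, COL1A2 in RD-ES ranged from -0.49 to 0.0081 and its difference between the lines from -0.034 to 0.47. In SK-N-MC the ranges were -0.010 to 0.11 for COL1A1, -0.057 to 0.0052 for COL1A2, -0.11 to 0.060 for COL3A1, -0.16 to 0.016 for COL4A1, -0.17 to 0.057 for COL4A2, -0.13 to 0.076 for COL6A1, -0.14 to 0.023 for COL6A2 and -0.26 to 0.023 for COL7A1. A group left with 1 library was assumed to vary like the others. Depth limits values near 0.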
